A study of Mus musculus with 3 samples.

Results

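Long footprints, intervals of at least 25 bp that DNase I left largely uncut inside accessible chromatin, were taken from 3 DNase-seq libraries of natural killer cells, innate lymphocytes able to kill virus-infected and tumour cells. The libraries form 1 group of primary cells from male adult B6CASTF1/J mice (age 2 months, virgin), the hybrid first generation of a cross between C57BL/6 and CAST parents. Their biosample labels differ, but the donor label is shared. No treatment or sort is named and separate animals are not stated. SDs therefore measure the spread between these libraries, which may be technical. The p-values rest on the signs and sizes of only 3 differences between long and short footprints or their peaks. The members were chosen by their measured width alone, in each library's own list of footprints: 8616 of 101990 footprints in replicate 1, 28166 of 239483 in replicate 2 and 25428 of 222990 in replicate 3. Their counterparts were the footprints of 7 to 12 bp, here called short, in the same peaks. A total of 8029, 25023 and 22685 long footprints had their middle in a peak of the larger peak list, and those peaks held 12261, 29058 and 26009 short ones.

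DNase I cuts DNA that is not wrapped around nucleosomes, and a bound protein shields the bases it covers, so that a footprint appears as a gap in the cuts. CTCF, a protein with many zinc fingers that anchors chromosome loops and insulates neighbouring domains, covers an unusually long stretch of DNA, with a core sequence read by its central fingers and, at a subset of sites, a further upstream module read by other fingers. Promoters are covered by several proteins side by side, among them SP and KLF factors on GC boxes, CREB and ATF factors on the cyclic AMP response element (CRE), NRF1, NF-Y and the RFX factors.

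The sequences below, from the mouse reference GRCm38 (mm10), show the kinds of site that recurred. Each sequence and its coordinates span the region joined over the 3 replicates. Its outer bases can therefore lie outside the footprint of a single replicate. In the first 3, narrow CTCF footprints, capitals mark the 13-letter CTCF motif and the sequence is printed on the strand of the motif. The site chr6:87887715-87887742 (plus strand) lies within 500 bp of the start of Copg1, chr17:33890944-33890972 (minus strand) within 500 bp of the start of Kifc1, and chr5:114667709-114667739 (minus strand) between genes, nearest to Trpv4.
Copg1 promoter, narrow: acaggaCCACAAGGGGGCGcagaagcgg
Kifc1 promoter, narrow: cagtatCCGCTAGGTGGCGctcgctccgc
Trpv4 upstream, narrow: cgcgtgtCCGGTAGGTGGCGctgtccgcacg

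The next 4 are wide CTCF footprints in which the same motif is preceded by a second block, also in capitals, that matches TGCAGTNCC. They show where the additional covered bases lie. In the first, the intergenic site on chromosome 2, the block lies further from the motif than in the others. The spacing of the others is the common one among the sites counted below. The site chr2:128396113-128396161 (minus strand) is intergenic, chr2:167685302-167685349 (plus strand) is in an intron of Tmem189, chr13:117198558-117198606 (plus strand) is intergenic with Emb as the nearest gene, and chr4:150965347-150965393 (minus strand) is in an intron of Camta1. These 4 were chosen after their values were seen.
Intergenic site on chromosome 2, wide: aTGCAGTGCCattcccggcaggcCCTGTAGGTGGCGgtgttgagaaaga
Tmem189 intron, wide: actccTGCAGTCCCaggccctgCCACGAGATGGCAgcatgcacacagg
Emb upstream, wide: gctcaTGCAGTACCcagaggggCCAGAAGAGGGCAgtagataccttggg
Camta1 intron, wide: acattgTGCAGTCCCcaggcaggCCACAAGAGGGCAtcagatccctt

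A pair of wide CTCF footprints without that block is shown because their width did not vary between replicates. They lie within 500 bp of the start sites of Fxr2 (chr11:69632786-69632834, plus strand) and Wrb (chr16:96145205-96145254, minus strand).
Fxr2 promoter, wide: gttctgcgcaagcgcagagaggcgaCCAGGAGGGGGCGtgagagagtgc
Wrb promoter, wide: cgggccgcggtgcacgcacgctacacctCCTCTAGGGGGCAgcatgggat

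The next 5 hold other motifs, again in capitals, and were among the sites of highest peak signal for that motif, and a sixth was chosen for its width. The footprint chr10:80622023-80622070 (plus strand), intergenic and upstream of Csnk1g2, has a pair of CREs (TGACGTCA). Those at Chd2 (chr7:73537868-73537914, plus strand, CRE), Mplkip and Sugct (chr13:17694980-17695024, minus strand, GC box GGGGCGGGG), Bclaf1 (chr10:20312327-20312363, minus strand, ZBTB33 motif TCTCGCGAG) and Pak4 and Samd4b (chr7:28598192-28598217, minus strand, RFX motif GTTGCCATG) lie within 500 bp of a start site. The Tmem184c promoter region (chr8:77610792-77610867, plus strand) is one of the longest found in every replicate and is shown without marks. Its joined length is 76 bp, while its footprints measured 64, 66 and 67 bp. It does hold a searched motif, the NF-Y element CCAATCA, on the strand opposite to the one printed (tgattgg).
Csnk1g2 upstream: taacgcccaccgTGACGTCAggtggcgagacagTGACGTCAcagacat
Chd2 promoter: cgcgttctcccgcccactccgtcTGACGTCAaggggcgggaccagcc
Mplkip and Sugct promoter: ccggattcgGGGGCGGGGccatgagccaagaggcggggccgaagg
Bclaf1 promoter: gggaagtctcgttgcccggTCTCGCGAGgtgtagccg
Pak4 and Samd4b promoter: gctccGTTGCCATGgggactagtggg
Tmem184c promoter: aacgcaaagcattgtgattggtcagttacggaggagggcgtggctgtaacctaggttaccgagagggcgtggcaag

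Long footprints made up 8.45%, 11.8% and 11.4% of the footprints of replicates 1, 2 and 3. Their median width was 30 bp in each replicate, and the widest measured 98, 98 and 107 bp. Widths of 25 to 29 bp accounted for 44.1% ± 0.228 of them (SD, n = 3), 30 to 34 bp for 26.0% ± 1.93, 35 to 39 bp for 12.8% ± 0.416, 40 to 44 bp for 10.2% ± 0.421 and 45 to 49 bp for 4.94% ± 0.361. Only 237, 484 and 438 footprints reached 50 bp. The threshold falls on a slope without a gap: at 25 bp, just inside, there were 915, 2715 and 2511 footprints, and at 24 bp, just outside, 1046, 2983 and 2813.

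**Figure D1:**
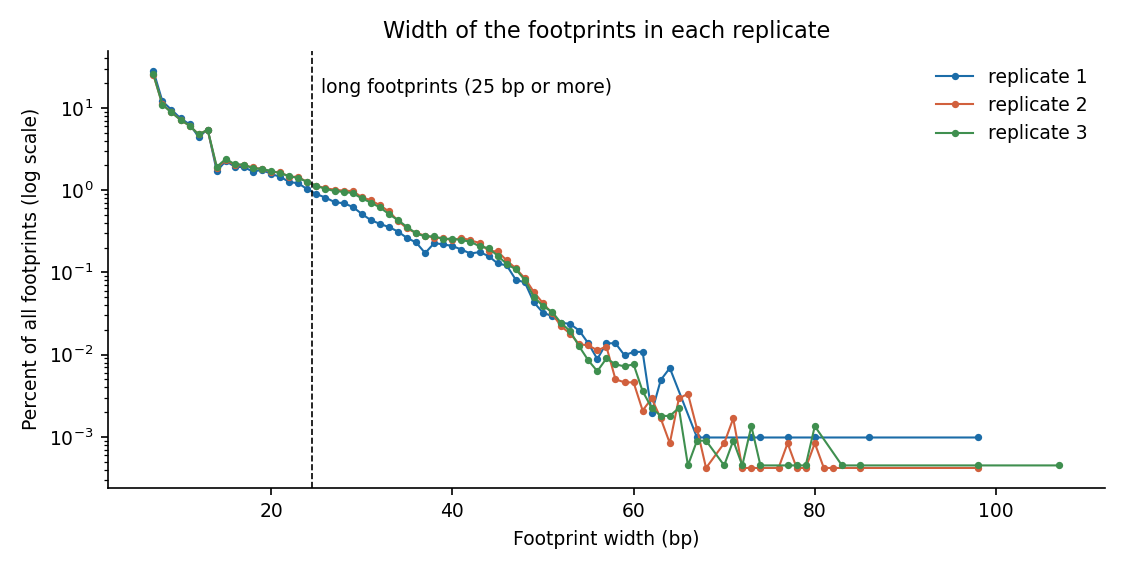
Share of all footprints (percent, log scale) at each width in bp for the 3 replicates, with the 25 bp threshold as a dashed line. The curves fall steeply from 7 bp, flatten near 40 bp and then drop into a sparse tail that ends at 98 to 107 bp.

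Most long footprints lay in peaks, 93.2%, 88.8% and 89.2% of them, against 84.1%, 80.2% and 81.7% of all short ones. They were concentrated in a minority of peaks: 16.6% of the peaks of replicate 1, 23.7% of replicate 2 and 22.3% of replicate 3 held one, of which 83.6%, 79.7% and 80.2% held exactly 1, and no peak held more than 5. Peaks with a long footprint stood at a mean signal percentile of 79.7 ± 2.27 within their own list, against 49.7 ± 2.87 for peaks with other footprints only (SD, n = 3 each), a difference of 29.97 ± 0.713 percentile points that was positive in 3 of 3 replicates. With 3 replicates the exact two-sided sign-flip test cannot go below p = 0.25, the value it gave here and in every comparison below whose 3 differences share a sign. In the lowest decile of peaks by signal 0 of 3880, 0.0114% and 0.0253% held a long footprint (0 of 3880 allows a share of up to 0.0773%, by counting error only), and in the highest decile 64.6%, 73.1% and 71.2% did. The share of peaks with any footprint rose as well, from 17.7%, 33.2% and 28.1% in the lowest decile to 99.1%, 99.7% and 99.7% in the highest. Of the footprints themselves 0%, 0.0284% and 0.0746% were long in the lowest decile and 17.2%, 24.4% and 23.8% in the highest. Peaks with a long footprint held a median of 4, 3 and 3 footprints, those with other footprints only 2 in each replicate. The median peak width was the same in both classes, 220 bp in replicate 1 and 200 bp in replicates 2 and 3. The files give no read depth, and the part of local read depth in the calling of long footprints was not tested.

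Within its peak a long footprint sat close to the middle. The median distance was 24, 19 and 19 bp for long and 70, 63 and 63 bp for short footprints of the same peaks, a difference of -44.7 ± 1.15 bp (SD, n = 3; exact sign-flip p = 0.25). A short footprint cannot overlap the long one of its peak, so this difference depends in part on the choice of reference. No other reference was used for it.

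**Figure D2:**
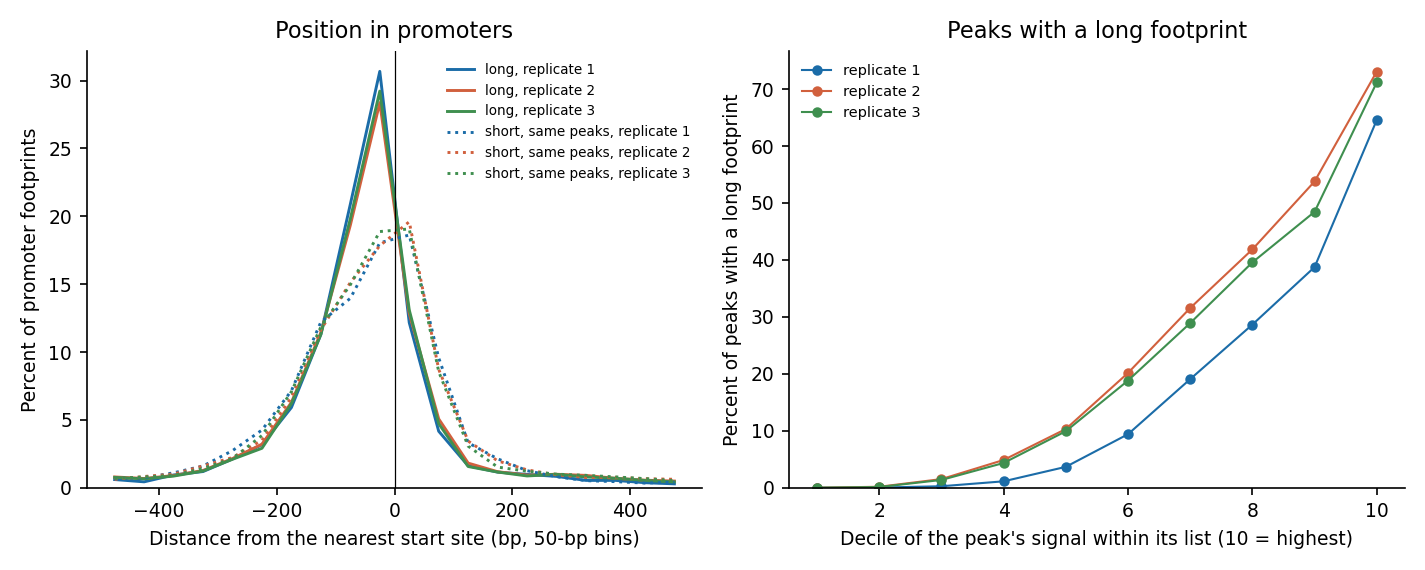
Left, share of promoter footprints (percent, 50-bp bins) by distance from the nearest start site, long (solid) and short of the same peaks (dotted), in each replicate. Right, percent of peaks with a long footprint by decile of peak signal. Long footprints pile up just before the start site, with 47.7% to 51.6% of them in the 100 bp before it, and the share of peaks that hold one climbs to between 64.6% and 73.1% in the top decile.

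Promoters, taken as 500 bp on each side of a start site of a protein-coding gene, held 59.2%, 38.4% and 41.3% of the long footprints in peaks. The short footprints of the same peaks were there in 67.8%, 36.7% and 39.7% of cases. The difference, -8.68 points in replicate 1 and 1.74 and 1.55 points in replicates 2 and 3, had no common sign (mean -1.80 ± 5.96, exact sign-flip p = 1), so no direction can be given for it. Its mean turned to 1.65 points without replicate 1, the library with the fewest footprints and the highest promoter share in both classes. Of the short footprints of all peaks 32.7% were in promoters on average, so that against them the long ones were higher by 13.6 points. Against only those short footprints of the same peaks that lay at least 50 bp from a long one, the long ones were lower in every replicate, by a mean difference of -4.41 ± 6.35 points (SD, n = 3; exact sign-flip p = 0.25). Away from promoters, exons held 5.73% ± 0.738 of the long and 5.99% ± 1.15 of the short footprints, introns 23.2% ± 6.23 and 22.4% ± 9.07, and intergenic DNA 24.8% ± 4.28 and 23.5% ± 6.96. The few long footprints outside any peak were mostly in promoters, 78.4%, 77.0% and 79.2% of 587, 3143 and 2743.

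Inside promoters the position differed. Of the promoter footprints, 51.6%, 47.7% and 49.03% of the long ones lay in the 100 bp before the start site, where the core promoter and its proximal elements lie, against 32.0%, 32.955% and 33.8% of the short ones (difference 16.5 ± 2.65 points, SD, n = 3, exact sign-flip p = 0.25). In the 100 bp after the start the order was the other way, with 16.3%, 17.9% and 17.8% of the long and 28.2%, 28.3% and 27.6% of the short footprints. Here too the short footprints could only lie beside the long ones of their peaks, and no other reference was used.

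The DNA under long footprints was rich in G and C. In windows of 40 bp around the middle the GC content was 65.9%, 62.1% and 62.4% for long and 61.5%, 55.6% and 56.2% for short footprints of the same peaks (difference 5.71 ± 1.18 points, SD, n = 3, exact sign-flip p = 0.25). CpG dinucleotides numbered 3.30, 2.46 and 2.58 per window in long and 2.90, 1.81 and 1.92 in short footprints. Repeat-masked bases made up 9.33% ± 2.49 of long and 8.998% ± 2.82 of short windows, a difference of 0.334 ± 0.356 points (SD, n = 3; exact sign-flip p = 0.25) whose sign turned (-0.729) among footprints with a unique centre. The 25 bases at the centre occurred elsewhere in the genome in 3.31%, 5.61% and 5.29% of the long footprints and in 2.53%, 3.603% and 3.37% of the short ones.

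CTCF was the leading motif of the long footprints. Its 13-letter motif stood in the 40-bp window of 1656 of 8029 long footprints of replicate 1 (20.6%, 95% Wilson interval 19.8 to 21.5), 26.5% in replicate 2 (26.0 to 27.1) and 25.4% in replicate 3 (24.9 to 26.0), intervals that cover counting error only. The short footprints of the same peaks had it in 0.432%, 0.282% and 0.319% of windows, which are 53, 82 and 83 footprints. The log2 ratio of the shares was 5.58, 6.55 and 6.32 (mean 6.15 ± 0.51, SD, n = 3, exact sign-flip p = 0.25). Footprints of one list cannot overlap, so a short footprint beside a long one is placed off the site the long one covers. Set against all non-overlapping 40-bp tiles of the same peaks, of which 3.62%, 5.70% and 5.44% had the motif, the mean log2 ratio was 2.32, and against short footprints of all peaks it was 3.62. The motif was in 2.15%, 2.31% and 2.27% of tiles of all peaks.

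Place divided the CTCF footprints. Away from promoters 43.3%, 40.04% and 40.1% of long footprints had the motif, and within 500 bp of a start site 4.95%, 4.82% and 4.58% did. Short footprints of the same peaks had it in 0.888%, 0.272% and 0.364% of distal and 0.216%, 0.300% and 0.252% of promoter windows. Read from the motif side, 66.6%, 79.7% and 77.4% of the 2500, 8350 and 7440 footprints that enclosed a whole CTCF motif were long. Among all footprints of at least 13 bp, the least that can enclose it, 26.7%, 32.2% and 31.3% were long, and a wider interval has more room for any motif.

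Footprints that enclosed the CTCF motif came in 2 widths. The narrow class had its most frequent width at 27, 29 and 29 bp in replicates 1, 2 and 3, and the wide class at 45, 42 and 42 bp, and the least frequent width between them was 39, 38 and 38 bp, with 24, 90 and 79 footprints. The wide class of 40 to 49 bp had 247, 1082 and 880 members and the narrow class of 25 to 34 bp 1238, 5026 and 4376. The classes differed mainly on the upstream side of the motif. In the wide class the footprint began 22 bp before the motif in each replicate, and in the narrow class 5, 6 and 5 bp before it. It ended 9 bp after the motif in each replicate in the wide class and 10 bp after it in the narrow class. The additional covered bases lay before the core motif, the side of the upstream module.

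**Figure D3:**
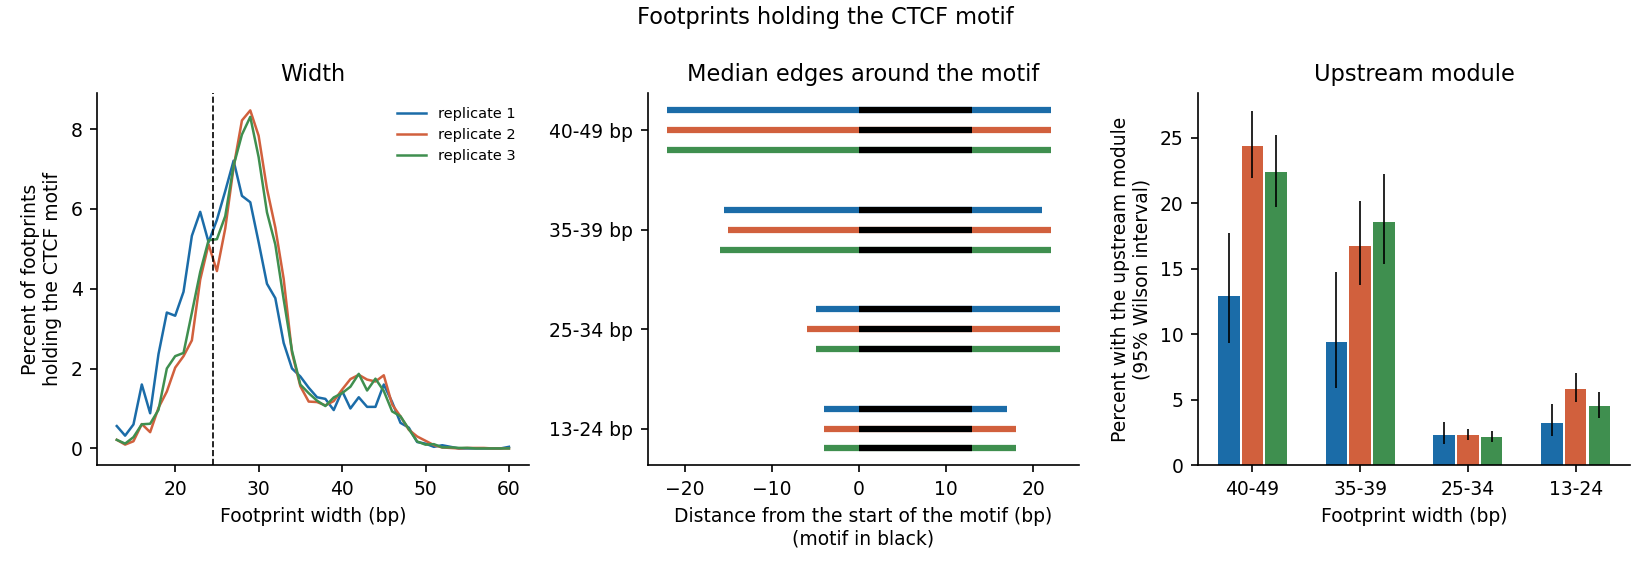
Footprints enclosing the CTCF motif. Left, percent at each width in bp per replicate, dashed line at 25 bp. Middle, median footprint edges in bp around the motif (black) per width class. Right, percent with the upstream module TGCAGTNCC, spelled after the base shares of these footprints were seen, bars with 95% Wilson intervals. The wide class of 40 to 49 bp starts 22 bp before the motif and has the module in 12.96% to 24.4% of members. The 25 to 34 bp class has it in 2.17% to 2.34% and the 13 to 24 bp class in 3.24% to 5.83%.

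The sequence upstream differed with the width. With position 1 as the first base of the motif and -1 as the base before it, G at position -16 was found in 80.03% ± 4.85 of wide and 38.4% ± 2.13 of narrow CTCF footprints (SD, n = 3). For T at position -12 the shares were 81.4% ± 5.98 and 45.6% ± 1.34, and for C at position -10 they were 78.1% ± 3.59 and 43.3% ± 1.74. A block matching TGCAGTNCC stood within the 24 bases before the motif in 32 of 247, 264 of 1082 and 197 of 880 wide footprints (12.96%, 24.4% and 22.4%). Of the narrow ones 29 of 1238, 117 of 5026 and 95 of 4376 had it (2.34%, 2.33% and 2.17%), a difference of 17.6 ± 6.15 points (SD, n = 3). The spelling of the block was chosen after these base shares were seen, in the same footprints. Its higher share in the wide class follows in part from that choice, so the difference is a description and no test of it is given. It began at position -17 in 96 of 105, 545 of 567 and 440 of 460 of all CTCF footprints that had it. Those with the block were wider, with median widths of 33, 39 and 38 bp against 27, 29 and 29 bp without it. The 35 to 39 bp class lay between, with the block in 9.41%, 16.7% and 18.6%.

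The core itself also differed between the classes. At position 8 the most frequent base was A in wide footprints (60.02% ± 6.90) and G in narrow ones (58.9% ± 3.38), and at position 13 it was A (57.5% ± 3.82) and G (55.8% ± 3.55). Both choices are allowed by the motif as searched. The wide class also had more repeat-masked members, 27.9%, 45.9% and 42.5% with at least 1 masked base against 13.005%, 19.8% and 18.8% of the narrow class, and more whose centre was not unique in the genome, 6.07%, 15.4% and 13.8% against 2.10%, 5.83% and 5.83%. Their peaks ranked higher, at median signal percentiles of 80.5, 79.3 and 79.4 against 72.0, 73.4 and 72.2. A wider interval has more bases that can be masked, and masked bases were not counted in equal windows for these classes. The part of repeats and of peak signal in the difference of width was not tested.

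The width class of a CTCF site carried over between libraries. Of wide sites of replicate 2 whose motif was also enclosed in a footprint of replicate 3, 65.1% were again 40 to 49 bp and 17.7% were 25 to 34 bp. Of narrow sites, 79.4% were again narrow and 2.27% wide. From replicate 3 to replicate 2, 75.9% of wide and 84.2% of narrow sites kept their class. In replicate 1, with the fewest footprints, 34.8% of the wide sites of replicate 2 that were found were wide, 30.4% were 25 to 34 bp and 20% were 13 to 24 bp. All 3 replicates hold the same cells by label, so this is a statement about the sites and not about variation between animals.

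Other motifs followed CTCF at a distance. Of 37 motifs searched on both strands, 15 were more frequent in long than in short footprints of the same peaks in every replicate and 15 less frequent. Against the 40-bp tiles of the same peaks as well, 14 were higher and 14 lower. Those higher were CTCF, CRE, GC box, EGR, RFX, ZBTB33, NRF1, REST, ZNF143, ZEB E-box, YY1, E-box CACGTG, ETS and the CACCC box. The letters of the ZEB E-box (CACCTG) and of YY1 (AAGATGGC) can lie within the CTCF motif. In windows without the CTCF motif, a comparison added after these overlaps were noticed, the ZEB E-box was in 2.42%, 3.52% and 3.26% of long against 2.24%, 2.97% and 2.66% of short footprints. YY1 then had no common direction, with 0.377%, 0.500245% and 0.473% against 0.606%, 0.431% and 0.521%, while CRE, GC box, NRF1, EGR and REST stayed higher in long footprints in every replicate. Those lower were GATA, ESRRA, FOX, IRF, CEBP, NFAT, E-box CAGCTG, STAT, AP-1, PU.1, NF-kB, POU, TEAD and NFI. Long windows were richer in G and C than short ones, and no reference matched for base composition was made. The part of base composition in these motif differences was not tested. The intervals themselves, widened by 4 bp on each side, were also searched in place of equal windows. In them 34 of the 36 motifs other than CTCF were higher in long footprints and 0 lower. Long intervals then offer more sequence, and the part of this in the change was not tested.

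**Figure D4:**
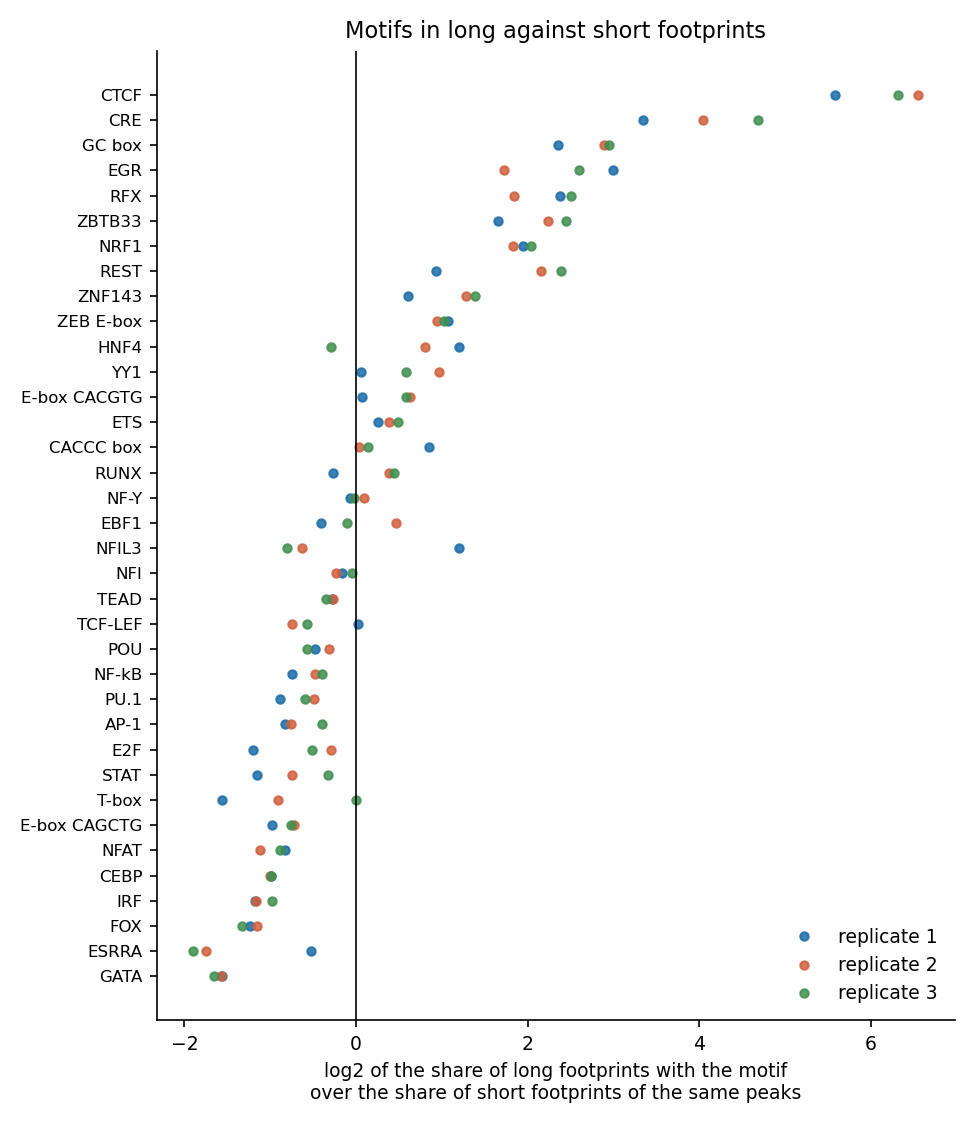
Log2 ratio of the share of long footprints with each motif over that of short footprints of the same peaks, 1 point per replicate. CTCF stands alone between 5.58 and 6.55, CRE follows at 3.34 to 4.68, and GATA has the lowest mean, -1.60. MEF2, with 0 short matches in replicate 1, is not drawn.

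The CRE (TGACGTCA), bound by CREB and ATF factors, was in 2.15%, 1.36% and 1.58% of long and 0.212%, 0.0826% and 0.0615% of short windows, a mean log2 ratio of 4.02 ± 0.67 (SD, n = 3; exact sign-flip p = 0.25), and in 0.589%, 0.399% and 0.471% of tiles of these peaks. The GC box (GGGGCGGGG), bound by SP and KLF factors, was in 9.23%, 5.13% and 5.68% of long and 1.80%, 0.692% and 0.738% of short windows (log2 ratio 2.73 ± 0.33), and in 2.93%, 1.98% and 2.10% of tiles. The NRF1 element (CATGCGC), bound by a regulator of mitochondrial and housekeeping genes, was in 2.91%, 1.75% and 2.04% of long and 0.759%, 0.496% and 0.496% of short windows (log2 ratio 1.93 ± 0.11), and in 1.18%, 0.833% and 0.884% of tiles. Each of these 3 exceeded its short counterpart and its tiles in every replicate.

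Rarer elements were also higher in long footprints in every replicate. The RFX motif was in 0.289% of long and 0.0618% of short windows on average, the ZBTB33 motif in 0.402% and 0.0989%, the EGR motif (GCGTGGGCG) in 0.262% and 0.0494%, and the REST half-site (GGACAGCGC), bound by a repressor of neuronal genes, in 0.189% and 0.0591%. Their tiles held them in 0.119%, 0.163%, 0.114% and 0.0768%. Some of these short counts are as low as 5 footprints in a replicate, so the ratios are loose. Together CTCF, GC box, CRE and NRF1 motifs were found in 34.2%, 34.3% and 34.2% of long and 3.18%, 1.53% and 1.60% of short footprints, and 52.8%, 51.0% and 50.5% of long footprints had none of the 37.

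Motifs of lymphoid factors gave a mixed picture. The ETS element (CCGGAAG) was in 3.65%, 2.45% and 2.78% of long and 3.05%, 1.88% and 1.98% of short windows, a log2 ratio of 0.38 ± 0.11 (SD, n = 3; exact sign-flip p = 0.25). RUNX (TGTGGTT), whose factors act in natural killer cell development, had no common direction, with 0.448%, 1.08% and 1.27% of long against 0.538%, 0.826% and 0.930% of short windows. The T-box element (AGGTGTGA), read by T-bet and Eomes, was in only 2, 22 and 28 long footprints (0.0249%, 0.0879% and 0.123%) against 0.0734%, 0.165% and 0.123% of short windows. IRF (AANNGAAA), bound by interferon regulatory factors, was lower in long footprints in every replicate, 0.996%, 1.33% and 1.499% against 2.26%, 2.98% and 2.95%, as was AP-1 (TGANTCA), 0.311%, 0.524% and 0.661% against 0.555%, 0.884% and 0.869%.

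For reference, 40-bp tiles of all peaks held ETS in 1.19% on average, RUNX in 1.47%, the T-box element in 0.269%, IRF in 2.93%, AP-1 in 1.44%, the ZEB E-box in 3.495%, YY1 in 0.354% and the NF-Y element in 0.706%.

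Motif content changed with width beyond the threshold. The CTCF share was highest at 30 to 34 bp (23.2%, 31.9% and 29.8%), fell at 35 to 39 bp (15.7%, 17.3% and 17.2%), was again 21.996%, 29.4% and 25.6% at 45 to 49 bp, and dropped to 3.46%, 6.56% and 5.36% at 50 bp or more. The GC box was in 7.48%, 3.96% and 4.18% at 25 to 29 bp and in 13.7%, 9.46% and 10.1% at 40 to 44 bp. The NF-Y element (CCAATCA), the CCAAT box of promoters, was in 1.25%, 0.979% and 1.02% at 25 to 29 bp and in 3.46%, 4.45% and 3.32% at 50 bp or more, although over all long footprints it did not differ in one direction from the short ones (1.39%, 1.08% and 1.18% against 1.47%, 1.01% and 1.1996%).

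**Figure D5:**
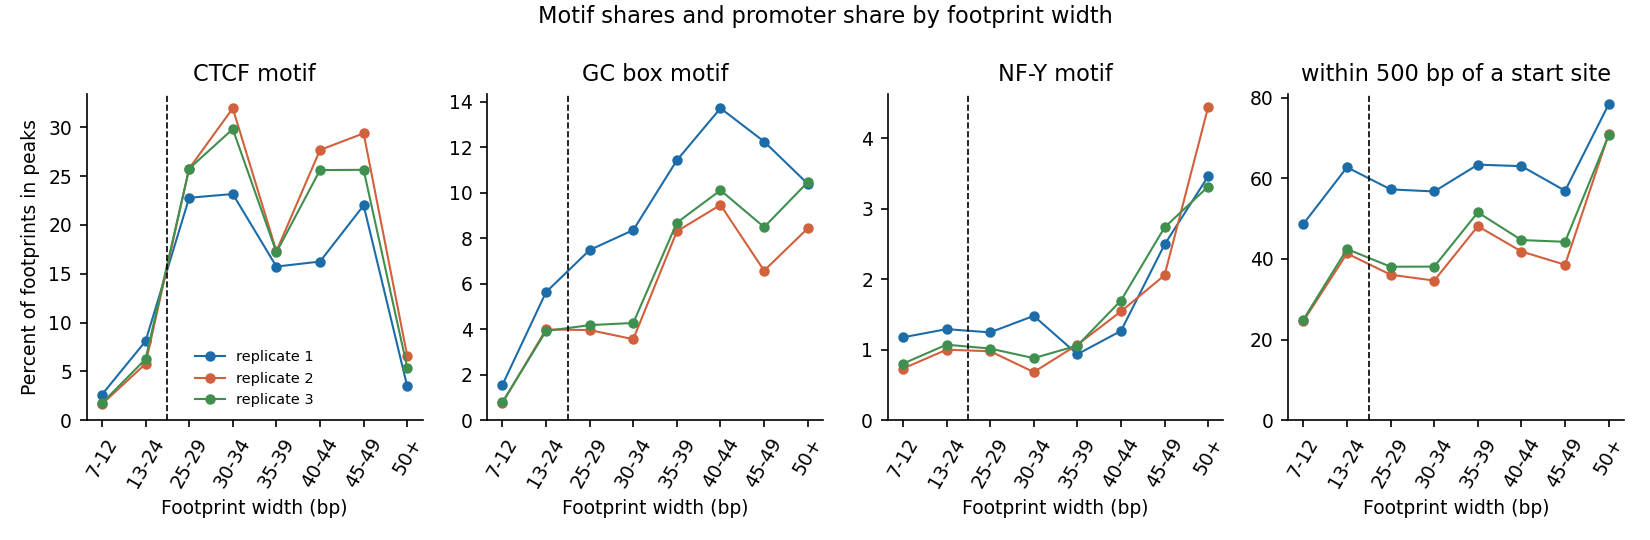
Percent of footprints in peaks with the CTCF, GC box and NF-Y motif in the central 40 bp, and percent within 500 bp of a start site, by width class in bp for each replicate; the dashed line is the 25 bp threshold. CTCF dips at 35 to 39 bp and falls to between 3.46% and 6.56% from 50 bp, where 70.7% to 78.4% of footprints are in promoters.

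The longest footprints lay mostly at promoters. From 50 bp on, 78.4%, 71.0% and 70.7% of those in peaks were within 500 bp of a start site, and their peaks stood at mean signal percentiles of 95.2, 94.4 and 94.5. A minority held more than 1 GC box. Among footprints of 50 bp or more, 19.8%, 14.05% and 16.7% enclosed a GC box and 2.53%, 4.55% and 4.11% enclosed 2 or more without overlap, which are 6, 22 and 18 footprints. At 25 to 34 bp, 0.341%, 0.160% and 0.161% enclosed 2 or more. Of the other elements counted from 50 bp on, NF-Y was there 2 or more times in 1 footprint of each replicate and NRF1 in 2, 1 and 1, while no such footprint enclosed CRE, ETS or CTCF motifs 2 or more times. In the 57, 148 and 145 neighbouring GC box pairs within one long footprint the most common distance from start to start was 10 bp, and the median was 17, 15 and 15 bp. Wider intervals have more room for pairs, and no width-matched comparison was made.

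A small set at 35 to 44 bp carried the B box of tRNA genes (searched as GTTCGANTC after the values were seen), a promoter element inside the gene that TFIIIC binds. It was in 6 of 1068, 39 of 2988 and 34 of 2834 footprints of 35 to 39 bp (0.562%, 1.31% and 1.1997%), against 0.0905%, 0.0427% and 0.0431% of all short footprints in peaks. Over all long footprints it was in 0.262%, 0.344% and 0.344%, and in the short footprints of the same peaks in 0.163%, 0.0482% and 0.0423%. Of the long ones with it, 95.2%, 77.9% and 80.8% had a centre found more than once in the genome, so reads cannot be assigned to 1 copy with certainty.

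Long footprints of the smaller library recurred in the larger ones. Of those of replicate 1, 85.4% were overlapped by at least 1 bp by a long footprint of replicate 2 and 85.8% by one of replicate 3. In the other direction replicate 1 covered 26.1% of those of replicate 2 and 29.1% of those of replicate 3. Replicate 3 covered 70.1% of replicate 2, and replicate 2 covered 77.6% of replicate 3. The mean over the 6 ordered pairs was 62.3%, or 73.8% without replicate 1. Where a long footprint was not long elsewhere, a shorter one was usually there: with a footprint of any width counted, 71.7% to 99.9% were overlapped. A long footprint met 2 or more footprints of another replicate in 10.3% to 19.7% of cases.

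Between the 2 larger libraries, long footprints with the CTCF motif recurred more often than those without it. Long footprints with the CTCF motif in replicate 3 were overlapped by a long one of replicate 2 in 90.1% of cases, and those without it in 73.9%. From replicate 2 to replicate 3 the shares were 78.4% and 67.4%, and from replicate 1 to replicates 2 and 3 they were 98.5% and 97.3% with the motif and 82.1% and 83.0% without it. In the other direction, replicate 1 covered 25.1% and 28.6% of the long footprints of replicates 2 and 3 with the motif, and 26.5% and 29.2% of those without it. Edges were reproduced to within 2 bp on both sides in 60.7% of the overlapping pairs of replicates 2 and 3, and exactly in 14.4%.

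Footprint width at a place carried over in part between libraries. At places covered by a long footprint, the widest footprint of the other replicates averaged 28.7 ± 4.51 bp, and at places of short footprints of the same peaks 14.8 ± 4.18 bp (SD, n = 3), a difference of 13.8 ± 0.349 bp that was positive in 3 of 3 replicates. These widths came from libraries that had no part in choosing the members, although all 3 are of the same cells by label and a wide interval is more likely to meet any other interval. Both means cover only places where the other replicate had a footprint. Over the ordered pairs of replicates that was 71.7% to 99.9% of the long but only 22.4% to 72.0% of the short footprints. With the footprint over the middle base taken instead, the difference was 14.6 bp. Joined across replicates, the long footprints made 34674 regions, of which 6967 (20.1%) had a long footprint in all 3 replicates and 12738 in replicates 2 and 3 only. In 2020 of 6925 regions with exactly 1 in each, the 3 widths differed by at most 2 bp.

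Some of the longest regions found in all 3 replicates were unique promoter sequences and some were repeated sequences. The Zmynd8 promoter footprint (chr2:165884719-165884791) measured 73, 72 and 73 bp and the Tmem184c one 64, 66 and 67 bp, with centres found once in the genome. The Dcaf7 promoter footprint (chr11:106036660-106036737) measured 53, 76 and 78 bp, and the Bbx one (chr16:50432414-50432486) 53, 73 and 72 bp. At Dcaf7 only the footprint of replicate 1 had a peak signal percentile (99.3), and those of replicates 2 and 3 were not placed in a peak. The widest of all, chr9:3024091-3024188, measured 98 bp in each replicate, but all of its bases were repeat-masked and its centre occurred 81 times in the genome. Others, chr6:47757986-47758066, chr14:104715795-104715879 and chrY:90744671-90744750, had centres found 16, 14 and 4 times. In such sequences reads cannot be placed on 1 copy with certainty.

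The width of single CTCF sites was steady at some and variable at others. The Fxr2 and Wrb footprints, printed above for their constant width, measured 48 bp and 50 bp in every replicate. The narrow sites at Copg1, Kifc1 and near Trpv4 measured 25, 28 and 28 bp, 28, 29 and 29 bp, and 29, 31 and 30 bp, and the 4 with the upstream block between 44 and 49 bp. Among the 10 CTCF sites of highest peak signal the Sh3gl1 promoter site (chr17:56036717-56036764) measured 30, 46 and 28 bp and the Actb promoter site (chr5:142905768-142905809) 29, 31 and 41 bp, and the SD of the width over replicates ran from 0 bp at Fxr2 and Wrb to 9.87 bp at Sh3gl1. Among the other motifs, the Mplkip and Sugct footprint with its GC box measured 45 bp in each replicate, the Pak4 and Samd4b footprint with its RFX motif 25 bp in each, and the pair of CREs near Csnk1g2 47, 48 and 46 bp.

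The marker genes of the cell label were mostly open. Of 9 natural killer markers, 6, 9 and 9 had a promoter peak in replicates 1, 2 and 3. Of 7 B cell markers 6, 7 and 6 did, of 7 T cell markers 2, 5 and 3, and of 6 myeloid markers 1, 2 and 2. These are short lists. In the longer lists used below, 11 of 20 B cell and 7 of 20 T cell genes were open in all 3 replicates. For natural killer cells 19 of 22 effector and 17 of 25 receptor genes were. Across the genome 11196 protein-coding promoters were open in all 3, with 21829 protein-coding genes annotated. The part of B cells or of other cells in the long footprints was not tested.

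None of the open effector and receptor genes of natural killer cells had a long footprint at the promoter in all 3 libraries. Across the genome 33.8% of the 11196 protein-coding promoters open in all 3 replicates had one in each. Among 19 open effector genes and 17 open receptor genes there were 0 and 0, among 19 open transcription factor genes 4 (Id2, Ets1, Klf2 and Bach2), among 23 open genes of cytokine receptors and signalling 7, among 11 open B cell genes 1 (Cd37), among 7 open T cell genes 0, and among 10 genes of chromosome loops and insulators 6, among them Ctcf itself and the cohesin subunits Smc1a, Smc3, Rad21 and Stag1. The effector and receptor promoters had lower peaks, with median signal percentiles of 82.7 and 68.4 against 89.5 for all open promoters, and 12 and 3 of them reached the 80th percentile, where 45.9% of all open promoters had a long footprint in each replicate. At or above that percentile 4 of 9 transcription factor genes (44.4%) and 7 of 16 cytokine genes (43.8%) had one, shares near that background. All 10 loop and insulator genes reached it, of which 6 had one. Both counts of 0 depend on replicate 1. Without it 49.6% of open promoters had a long footprint in both other replicates, and so did 5 of 19 effector genes (Gzmb, Ccl4, Ccl5, Lamp1 and Srgn), 3 of 20 receptor genes (Fcgr3, Hcst and Sh2d1a), 7 of 21 transcription factor genes and 8 of 10 loop and insulator genes. Lists of this size give only coarse shares.

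Klf2, a factor that keeps lymphocytes quiescent and governs their circulation, had up to 4, 3 and 3 long footprints within 500 bp of a start site in replicates 1, 2 and 3. A region of its promoter, chr8:72318824-72318880, measured 57, 55 and 51 bp, and another, chr8:72318919-72318951, 33, 30 and 29 bp. The Ets1 promoter footprint (chr9:32695942-32695977) measured 36, 35 and 35 bp. Among cytokine receptors the Ifngr1 promoter footprint (chr10:19591897-19591936), at a subunit of the receptor for interferon gamma, measured 39, 39 and 40 bp, and that of Ifnar1 (chr16:91485065-91485092), at a subunit of the receptor for type I interferon, 26, 28 and 28 bp. The Socs1 footprint (chr16:10785169-10785217), at a feedback inhibitor of cytokine signalling, measured 47, 48 and 46 bp. The B cell list gave 1 site, at Cd37 (chr7:45239120-45239154), of 35, 25 and 29 bp.

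By number of regions in all 3 replicates within the gene body and 10 kb on each side, the first protein-coding annotations were Gm20388 with 51 in a span of 4435 kb, Fgfr2 with 10 in a span of 2961 kb, Trim7 with 10, and Camta1, Gm10720 and Samd4b with 9 each. Trim7 and Gm10720 span only 26.1 and 1.56 kb, and the repeated 98 bp footprint on chromosome 9 lies within 10 kb of Gm10720. Ddx54, Mid1, Ptma and Rita1 had 8 each, and Ddx54 and Rita1 are neighbours on chromosome 5 whose windows overlap.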

How the data were processed

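DNase-seq of natural killer primary cells was analysed from 3 libraries of 1 group. The authors deposited footprints, 2 peak lists and an interval list of the false discovery rate per library on mm10; the sources used here name no aligner, peak caller or footprint caller (not given in the sources used here). The score deposited with each footprint is a constant and was not used. The signal deposited with each peak was compared only as a percentile within one list, and the false discovery rate lists were not used. Total reads are not in these files, so depth per sample is unknown and the number of footprints (101990 to 239483) is the only guide to precision.

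Footprints were placed by their middle, in a peak of the larger list, and relative to 54327 start sites of 21829 protein-coding genes of GENCODE vM21. All footprints lay within GRCm38 chromosome lengths. Motifs (37, plus 2 spelled CTCF cores) were searched on both strands as fixed letter patterns in the reference, which is 1 of the 2 parental genomes of these hybrid mice, in 40-bp windows around the middle. The 13-letter CTCF pattern is given by name only. Values per replicate are given with the mean ± SD. Differences were tested by exact two-sided sign-flip over 3 replicates. The motif search, the placement in peaks and the sign-flip test were tested on simulated sequences with known answers. Computing used Python 3.11.15, numpy 2.4.6, pandas 2.3.3, scipy 1.17.1 and matplotlib 3.10.9.

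Regions named are joined regions with a long footprint in all 3 replicates: the 10 widest, the 10 with the CTCF motif in each replicate and the highest peak signal, up to 4 for each of the 6 motifs with the largest ratio, and up to 5 per gene list. Genes named by number are the 10 with most such regions in the gene body and 10 kb on each side. Not every region is printed. Sequences were printed only off untranslated regions. Members, lists and tests were chosen with earlier results of these data known. The alternatives were other width thresholds, the stricter peak list, other short footprints, other windows and promoter widths, other overlap rules and leaving out each replicate. The unique-centre, tile and middle-base alternatives, the position before the start site, the upstream block, the B box, the windows without CTCF and the gene lists without replicate 1 were added after seeing the data.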

Additional observations from a re-analysis of the deposited data

How the results depend on the processing

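The exact sign-flip test over 3 replicates cannot go below p = 0.25, so alternatives were judged by direction. The CTCF ratio kept its direction (log2 2.32 to 6.57) in its alternatives other than the interval with 4 bp on each side, which gave 9.01 but offers short footprints less sequence and so favours that direction. GC content kept its direction in 10 of 10 (5.19 to 6.45 points), as did peak signal in 6 of 6 (27.0 to 31.6 percentile points) and width in another replicate in 7 of 7 (11.2 to 16.6 bp). The promoter difference of -1.80 points reversed to 1.29 with long from 20 bp and to 13.6 against short footprints of all peaks, was -4.41 against short footprints at least 50 bp from a long one, and ranged from -3.56 to 1.65 when each replicate was left out. The repeat share difference of 0.334 points reversed to -0.431 against short footprints of all peaks and to -0.729 with unique centres only. Counting the interval with 4 bp on each side moved the motifs other than CTCF that were higher from 14 to 34 and those lower from 15 to 0. Overlap of long footprints moved from 62.3% to 91.0% when any footprint counted, and ranged from 55.8% to 73.8% when each replicate was left out. The cause was not tested. No paired analysis was possible because the libraries form 1 group and no replicate number links groups; long and short footprints were compared within each library. The limits are 3 libraries with 1 donor label, an unknown read depth, fixed-letter motifs, and reads that cannot be placed in repeated sequence.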

Other observations

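Words of 8 bases gave a view of the long footprints that used no motif list. Of 269 words found in at least 1% of the long windows of replicate 1, the 30 with the highest ratio over short footprints of the same peaks were taken from that replicate and read in the other two. All 30 were more frequent in long footprints in replicates 2 and 3 as well, with log2 ratios of 2.80 to 5.03 after adding 1 to each count. Stretches of the CTCF motif accounted for 27 of them, and TGACGTCA, the CRE, was among the rest. The libraries are of the same cells by label, so the replicates are not independent samples of sites.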
